A study of Mus musculus with 24 samples.

Results

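The transcripts described are 29 genes of cholesterol synthesis and of its control by SREBP2, out of 54532 genes in a read-count table from mouse bone marrow macrophages and the osteoclasts grown from them. They were taken by gene symbol from a list drawn up by function, with earlier results of these data known. It held 20 enzymes that make mevalonate, squalene, lanosterol and cholesterol. The others were 6 genes of SREBP2 and its control, 1 sterol carrier (Stard4) and 2 enzymes that supply acetyl-CoA. All 29 were found and all 29 passed the filter on low counts, which left 15035 genes. Macrophages were expanded from flushed marrow on petri dishes and then grown either in M-CSF, the macrophage growth factor, alone or in M-CSF with RANKL, the cytokine that turns macrophages into osteoclasts, and RNA was taken at day 3 or day 5. The osteoclast medium held 50 ng/mL RANKL and 30 ng/mL M-CSF on 15000 cells per well, and the sources used here give no dose of M-CSF for the wells without RANKL. A Runx1 transgene inserted at Rosa26 (Rosa26-Runx1tg/+) was present in both genotypes. Control cells had no Cre and are labelled wild type control. The other cells also carried LysM-Cre, a Cre driven from the lysozyme gene Lyz2 of myeloid cells, are labelled Runx1 overexpression, and are called LysM-Cre cells here. The sources used here name no strain, age or sex of the mice. Each of the 8 groups had 3 libraries, 24 in all, and nothing in the labels says whether these came from separate animals or cultures, so p-values measure only the spread between these libraries, which may be technical.

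Cells make cholesterol from acetyl-CoA by way of mevalonate, farnesyl diphosphate, squalene and lanosterol, and the farnesyl and geranylgeranyl units made on the way anchor small GTPases to membranes. The enzymes are switched on together by SREBP2, a membrane-bound transcription factor. When sterol is scarce the escort protein Scap carries SREBP2 to the Golgi, where the proteases encoded by Mbtps1 and Mbtps2 release its active part. When sterol is plentiful, Insig1 and Insig2 hold Scap in the endoplasmic reticulum. In osteoclasts the mevalonate pathway is best known through Fdps, the farnesyl diphosphate synthase that nitrogen-containing bisphosphonates inhibit.

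Promoter sequences from RefSeq on GRCm38.p6 are shown because SREBP2 is known to act at promoters through sterol regulatory elements next to sites of the general factors NF-Y and Sp1, and because many of these genes moved together. Of the 29 genes, 25 had a promoter entry, with 31 start sites, and Fdps, Fdft1, Sqle and Stard4 had none. In the 250 bases before the start, on both strands, the sterol-element letters TCACNCCAC occurred once, in Hmgcs1, against 1.05% of all 32817 promoters. The letters CCAAT (NF-Y) occurred at 20 of the 31 start sites, in 20 genes, against 33.8% of all promoters. GGGCGG (Sp1) occurred at 24 start sites, in 22 genes, against 32.7%, and the E-box letters CACGTG at 5, against 6.02%. The Runx letters TGTGGT, which can overlap the sterol element read on the other strand, occurred at 2 start sites, of Lss and Acly, against 14.0%. A match of letters is a description and not a binding site. The stretches printed are the single sterol-element match, and the promoters of an enzyme that was lower with RANKL (Mvk), of SREBP2 itself (Srebf2) and of its 2 retention genes (Insig1, Insig2). In Hmgcs1 (chr13:119690174-119690262, plus strand, bases −177 to −89 from the start) capitals mark the sterol-element letters at −137 to −129. In Mvk (chr5:114444119-114444268, plus strand), Srebf2 (chr15:82147031-82147180, plus strand), Insig1 (chr5:28071213-28071362, plus strand) and Insig2 (chr1:121332590-121332739, minus strand) capitals mark CCAAT and GGGCGG in either orientation.
Hmgcs1: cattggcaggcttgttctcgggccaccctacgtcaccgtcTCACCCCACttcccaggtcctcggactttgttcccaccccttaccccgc
Mvk: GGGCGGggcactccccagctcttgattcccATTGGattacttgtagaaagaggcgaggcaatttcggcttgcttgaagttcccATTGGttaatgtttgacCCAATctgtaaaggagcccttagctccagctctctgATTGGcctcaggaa
Srebf2: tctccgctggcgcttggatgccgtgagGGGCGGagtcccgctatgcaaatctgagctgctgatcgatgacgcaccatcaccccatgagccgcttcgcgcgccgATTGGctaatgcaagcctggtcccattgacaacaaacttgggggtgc
Insig1: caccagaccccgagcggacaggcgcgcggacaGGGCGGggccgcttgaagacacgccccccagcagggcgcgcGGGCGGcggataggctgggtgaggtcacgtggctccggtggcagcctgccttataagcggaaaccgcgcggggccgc
Insig2: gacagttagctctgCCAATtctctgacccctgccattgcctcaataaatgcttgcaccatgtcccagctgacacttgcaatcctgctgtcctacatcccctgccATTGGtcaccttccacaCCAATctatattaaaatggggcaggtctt
The 150 bases of Mvk held 4 CCAAT matches. Stretches of the same length, not printed, held 1 in Sc5d and 0 in Dhcr7 (chr7:143822995-143823144), enzymes that were also lower with RANKL. The stretch of Insig2, which moved the other way with RANKL, held 3, that of Srebf2 1 and that of Insig1 0. These counts are of unlike regions. The stretches ran from −150 to −1 in Mvk, Sc5d and Insig2, −172 to −23 in Dhcr7, −199 to −50 in Insig1 and −238 to −89 in Srebf2. Outside them, CCAAT matches lay at −85 and −49 of another Dhcr7 start site, at −216 in Insig1 and at −173 in Mvk.

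Levels are given in CPM, counts scaled to a common library size after TMM normalization (counts per 1000000), and differences as log2 fold changes from edgeR's quasi-likelihood test with Benjamini-Hochberg adjustment over all 15035 genes. A gene is called higher or lower where the adjusted p is under 0.05. Library totals ran from 18975750 to 36523995 counts, and mitochondrial transcripts took 1.52% to 2.42% of counts without RANKL and 3.15% to 4.57% with it. Runx1, the gene that the genotype label concerns, was at 79.4 ± 12.8 CPM in the control and 86.0 ± 11.7 CPM in the LysM-Cre libraries at day 3 without RANKL (SD, n = 3 each), and its differences between genotypes had an adjusted p of 1 at both days and in both media. The 4 libraries of LysM-Cre number 3 carried 2576 counts of Y-linked genes in all and 2 to 12 counts of Xist each, where every other library carried at least 14963 counts of Xist, so they stand apart by sex. Without them 18 of the 29 genes in place of 19 were called with RANKL at day 3 in LysM-Cre cells, and 10 in place of 13 at day 5. That fit also had fewer libraries in each LysM-Cre group, and the part of sex in the lost calls was not tested. All libraries are labelled osteoclasts, but the 10 osteoclast markers summed to 111 to 175 CPM without RANKL and 36219.6 to 59916 CPM with it. All 10 were called higher with RANKL in both genotypes at both days, and 7 or 8 of 8 macrophage markers were called lower. The lymphoid markers summed to at most 0.474 CPM in any library, the neutrophil markers to 36.0 to 130.0 CPM and the stromal and osteoblast markers to 8.02 to 299.8 CPM.

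With RANKL, enzymes of cholesterol synthesis fell at both days and in both genotypes, more of them at day 3. In control cells 14 of the 20 enzymes were called lower at day 3 and 8 at day 5, in LysM-Cre cells 13 and 8, and a single enzyme, Lbr, was called higher, at day 5 in control cells. Whether called or not, the log2 difference was below 0 for 19 of the 20 enzymes at each day in control cells, and for 19 and 18 in LysM-Cre cells. Mvk, Fdps, Fdft1, Sqle, Cyp51, Tm7sf2, Sc5d, Dhcr7 and Stard4 were called lower in all 4 comparisons. Insig2 and Mbtps1 were called higher in all 4. Over the 29 genes, 3 were called higher and 17 lower in control cells at day 3, where 59.1% of all genes tested were called (29.5% higher and 29.7% lower). At day 5 the counts were 4 higher and 11 lower, against 49.4% of all genes (26.4% and 23.1%). In LysM-Cre cells 3 were higher and 16 lower at day 3, against 59.2% (29.1% and 30.1%), and 2 were higher and 11 lower at day 5, against 52.4% (27.5% and 24.9%). The share of the 29 genes called in either direction was therefore near that of all genes, and the split between directions was not. The list was chosen with earlier results of these data known and the split was not tested, so it is a description only. The median log2 fold change of the 29 genes was −0.79 and −0.54 in control cells at days 3 and 5 and −0.74 and −0.59 in LysM-Cre cells, against −0.03, 0.03, −0.02 and 0.03 over all genes tested. In bulk RNA, fewer cells of a type and less RNA per cell cannot be told apart.

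**Figure D1:**
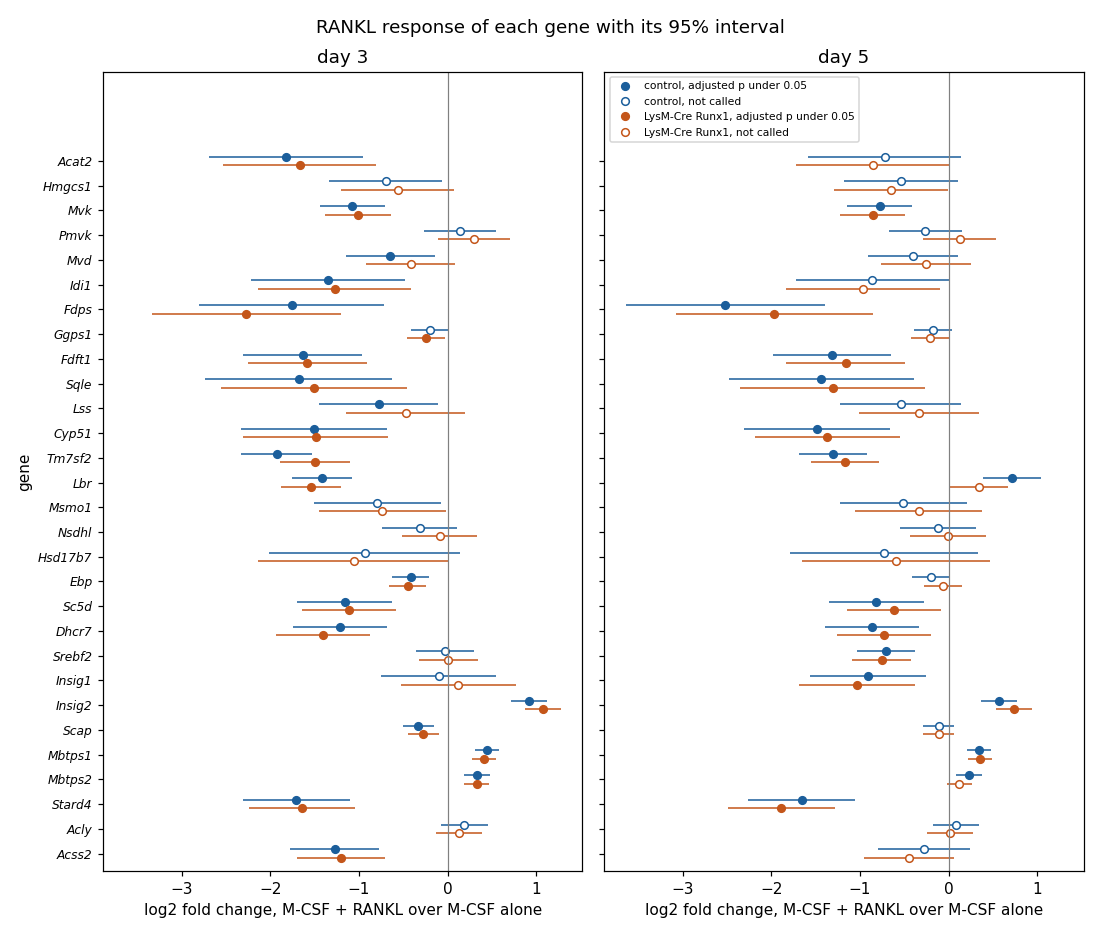
Log2 fold change with RANKL over M-CSF alone (horizontal axis) of each of the 29 genes (vertical axis) at day 3 and day 5, with 95% intervals, for control cells (blue) and LysM-Cre cells (orange); filled points had an adjusted p under 0.05. The points of most enzymes sit left of 0 in both panels, filled or not, Insig2, Mbtps1 and Mbtps2 sit to the right, and Lbr changes side between the days.

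Of the 7 enzymes that make mevalonate and turn it into farnesyl diphosphate, 5 were called lower at day 3 and 2 at day 5 in control cells, and 4 and 2 in LysM-Cre cells. The shares of all genes tested called lower were 29.7% and 23.1% in control cells and 30.1% and 24.9% in LysM-Cre cells. Mvk (ENSMUSG00000041939, chr5:114444269-114460591), the kinase that starts the conversion of mevalonate, was at 21.7, 35.0 and 30.6 CPM in the 3 control libraries in M-CSF alone at day 3 and at 13.3, 14.5 and 13.7 CPM with RANKL. At day 5 it was at 19.4, 20.8 and 25.98 CPM without RANKL and 13.8, 10.4 and 14.2 CPM with it. In LysM-Cre cells the values were 25.1, 21.3 and 32.9 CPM against 12.7, 14.0 and 12.6 CPM at day 3, and 22.3, 19.9 and 24.1 CPM against 10.2, 12.9 and 13.3 CPM at day 5. Every library with RANKL lay below every library without it in each of these 4 comparisons. Mvk is among the genes given by library for their small p in control cells, so the lack of overlap there is no separate support. The fold change was 2.11-fold lower at day 3 in control cells (log2 −1.07, SE 0.18, adjusted p = 2.45e-05) and 1.72-fold lower at day 5 (log2 −0.78, SE 0.18, adjusted p = 0.00100). In LysM-Cre cells it was 2.02-fold and 1.81-fold lower (adjusted p = 4.81e-05 and 0.000374).

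Fdps (ENSMUSG00000059743, chr3:89093588-89101959) had the largest fitted fall of these 7 enzymes in 3 of the 4 comparisons and the fewest counts, 8 to 170 in a library. In control cells at day 3 it was at 1.35, 5.78 and 6.09 CPM without RANKL and at 1.27, 1.39 and 1.25 CPM with it. Library number 1 without RANKL therefore lay within the range of the libraries with RANKL, while numbers 2 and 3 lay above it. At day 5 the values were 2.49, 5.09 and 3.97 CPM against 0.979, 0.659 and 0.363 CPM. LysM-Cre cells had 4.47, 1.83 and 7.35 CPM against 0.904, 0.704 and 1.18 CPM at day 3, and 2.32, 1.79 and 3.45 CPM against 0.780, 0.467 and 0.657 CPM at day 5. Apart from the first comparison the groups did not overlap. The fitted falls were 3.38-fold and 5.74-fold in control cells (log2 −1.76, SE 0.50, and −2.52, SE 0.54) and 4.83-fold and 3.91-fold in LysM-Cre cells, with adjusted p = 0.00476, 0.000532, 0.000704 and 0.00405. Of the distinct runs of 50 bases in Fdps transcripts, 26.2% also occur in 8 other genes, so its counts are uncertain.

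Among the other early enzymes, Acat2, the thiolase that joins acetyl units, fell from 33.9 ± 19.96 to 9.64 ± 2.97 CPM in control cells at day 3 (log2 −1.82, SE 0.42, adjusted p = 0.000842), and the groups overlapped because library number 1 without RANKL held 11.4 CPM. At day 5 it was at 16.7 ± 3.33 and 10.1 ± 1.22 CPM (adjusted p = 0.160). Acat2 shares 39.1% of its runs of 50 bases with 2 genes, Tcp1 and Acat3, and its counts are uncertain. Tcp1 rose, from 162 ± 33.0 to 244 ± 39.7 CPM at day 3 (adjusted p = 0.00325). Idi1, the isomerase of the isoprene units, fell from 39.1 ± 22.5 to 15.3 ± 2.99 CPM at day 3 in control cells (log2 −1.35, SE 0.42, adjusted p = 0.00843). Without library number 3 of M-CSF alone this Idi1 value became −0.96 with an adjusted p of 0.0695. Idi1 shares 25.3% of its runs of 50 bases with 5 other genes, so its counts are uncertain too. Mvd, the decarboxylase, fell from 54.7 ± 14.9 to 35.0 ± 5.25 CPM (log2 −0.65, SE 0.24, adjusted p = 0.0258). That call was lost without M-CSF library 2 or 3 or RANKL library 3, with an adjusted p from 0.0818 to 0.114. Hmgcs1, the synthase whose promoter holds the sterol-element letters, went from 130.3 ± 53.0 to 80.3 ± 11.2 CPM at day 3 (log2 −0.70, SE 0.31, adjusted p = 0.0567) and from 87.4 ± 17.7 to 60.3 ± 5.09 CPM at day 5 (adjusted p = 0.160), and was called in none of the 4 comparisons. Pmvk, the kinase after Mvk, was at 16.99 ± 4.85 and 18.7 ± 2.53 CPM at day 3 (log2 0.14, adjusted p = 0.559), and was not called either. Ggps1, which makes the geranylgeranyl unit off the main path, had log2 differences of −0.19 and −0.18 in control cells, neither called. In LysM-Cre cells at day 3 its log2 difference was −0.24 with an adjusted p of 0.0490, and that call was lost in 9 of 12 alternatives, among them leaving out library 1 or 2 of either medium (adjusted p from 0.0821 to 0.191).

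From squalene to lanosterol, all 3 enzymes were called lower in control cells at day 3, and Fdft1 and Sqle in every comparison. Among all genes tested, 23.1% to 30.1% were called lower in these comparisons. Fdft1 (ENSMUSG00000021273, chr14:63145150-63179578), squalene synthase, the first enzyme committed to sterols, was at 23.2, 46.4 and 57.0 CPM at day 3 in control cells without RANKL and at 11.3, 12.8 and 16.6 CPM with RANKL. The day 5 values were 22.2, 32.7 and 35.8 CPM against 10.8, 14.2 and 11.4 CPM. In LysM-Cre cells they were 40.6, 21.5 and 55.7 CPM against 12.2, 11.2 and 15.9 CPM at day 3, and 25.5, 18.5 and 33.3 CPM against 10.6, 11.5 and 12.3 CPM at day 5. No library with RANKL reached the lowest library without it. Fdft1 was 3.11-fold lower at day 3 in control cells (log2 −1.64, SE 0.32, adjusted p = 0.000186), 2.49-fold lower at day 5 (adjusted p = 0.00189), and 2.99-fold and 2.24-fold lower in LysM-Cre cells (adjusted p = 0.000257 and 0.00457). It shares 774 exonic bases, 18.3% of its own, with Ctsb, a lysosomal protease gene on the opposite strand, whose level fell with RANKL from 12554 ± 1936 to 3597 ± 596 CPM at day 3 and from 13990.1 ± 565 to 5175 ± 25.5 CPM at day 5 in control cells. The sources used here do not give the strand setting of the counting, so reads of this pair cannot be told apart, and the part of Ctsb in the Fdft1 values was not tested.

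Sqle, squalene epoxidase, a rate-limiting step of the pathway, fell 3.20-fold at day 3 in control cells, from 112 ± 63.0 to 35.1 ± 8.94 CPM (log2 −1.68, SE 0.51, adjusted p = 0.00745), and 2.71-fold at day 5 (adjusted p = 0.0219). In LysM-Cre cells the falls were 2.84-fold and 2.48-fold (adjusted p = 0.0144 and 0.0341). Its spread was wide, from 43.5 to 167 CPM among the control libraries without RANKL at day 3. The LysM-Cre calls leaned on library number 3 without RANKL, at 174 CPM at day 3 and 147 CPM at day 5, and the log2 values without it were −0.69 (adjusted p = 0.221) and −0.75 (adjusted p = 0.235). Those calls were also lost without RANKL library 1 or 2, with an adjusted p of 0.0523 to 0.123. In control cells the day 3 call was lost without M-CSF library 3 (adjusted p = 0.0509), and the day 5 call without RANKL library 1 or 3 (adjusted p = 0.0542 and 0.0588). Lss, lanosterol synthase, fell from 63.5 ± 28.1 to 37.1 ± 3.84 CPM in control cells at day 3 (log2 −0.78, SE 0.32, adjusted p = 0.0446), a call lost in 8 of 11 alternatives, among them leaving out any single library but M-CSF library 1 (adjusted p from 0.0616 to 0.230), and was not called in the other comparisons.

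Of the 9 enzymes from lanosterol to cholesterol, 6 were called lower at day 3 in each genotype, and 4 at day 5. Against these stand 29.7% and 23.1% of all genes tested in control cells, and 30.1% and 24.9% in LysM-Cre cells. Cyp51 (ENSMUSG00000001467, chr5:4081145-4104746), the lanosterol demethylase, was at 47.0, 130.4 and 163 CPM in control cells at day 3 without RANKL and at 35.2, 41.2 and 43.4 CPM with it. At day 5 it was at 70.8, 105 and 105 CPM and at 31.7, 36.0 and 32.4 CPM. The LysM-Cre values were 117, 49.1 and 162 CPM against 38.8, 30.7 and 47.4 CPM at day 3, and 77.5, 49.9 and 113 CPM against 26.5, 28.1 and 38.0 CPM at day 5. The groups did not overlap, but control number 1 and LysM-Cre number 2 without RANKL lay much nearer to the RANKL libraries than the others did. Cyp51 was 2.84-fold and 2.80-fold lower in control cells (log2 −1.51 and −1.49, SE 0.39 each, adjusted p = 0.00255 and 0.00367) and 2.81-fold and 2.59-fold lower in LysM-Cre cells (adjusted p = 0.00277 and 0.00619).

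The next step, reduction of the double bond that Cyp51 leaves, can be made by Tm7sf2 or by Lbr, and these genes behaved differently. Tm7sf2 (ENSMUSG00000024799, chr19:6062821-6077197), a reductase of the endoplasmic reticulum, was at 10.2, 13.1 and 11.6 CPM in control cells at day 3 without RANKL and at 3.59, 2.79 and 2.73 CPM with it. At day 5 the values were 10.2, 12.1 and 15.8 CPM against 5.97, 4.33 and 5.08 CPM. In LysM-Cre cells they were 12.9, 8.96 and 11.1 CPM against 4.005, 3.62 and 4.02 CPM, and 13.0, 9.38 and 13.0 CPM against 5.41, 5.09 and 5.20 CPM. All libraries with RANKL were below all without it at both days. The falls were 3.80-fold and 2.47-fold in control cells (log2 −1.93 and −1.31, SE 0.19 each, adjusted p = 2.54e-08 and 5.01e-06) and 2.82-fold and 2.25-fold in LysM-Cre cells (adjusted p = 6.73e-07 and 1.83e-05). In the GENCODE M21 annotation Tm7sf2 reaches only to 6068373, and there it shares 12.1% of its exonic bases with Vps51. The overlap of the longer deposited gene, which reaches to 6077197, was not measured. Vps51 was at 3.84 ± 0.347 CPM without RANKL and 4.73 ± 1.00 CPM with it at day 3 in control cells and was not called.

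Lbr (ENSMUSG00000004880, chr1:181815335-181843046) encodes the lamin B receptor, which is a sterol reductase and also tethers chromatin to the nuclear envelope. At day 3 it was at 61.8, 77.8 and 90.5 CPM in control cells without RANKL and at 23.96, 27.9 and 34.4 CPM with it. At day 5 the order was the opposite, with 30.8, 35.8 and 33.6 CPM without RANKL and 56.5, 56.6 and 51.2 CPM with it. LysM-Cre cells had 86.3, 68.8 and 102 CPM against 25.1, 28.4 and 34.8 CPM at day 3, and 39.2, 39.7 and 40.8 CPM against 45.3, 58.4 and 47.7 CPM at day 5. The groups did not overlap at either day, with the RANKL libraries low at day 3 and high at day 5. At day 3 Lbr was 2.67-fold lower in control and 2.91-fold lower in LysM-Cre cells (log2 −1.42 and −1.54, SE 0.16 each, adjusted p = 1.63e-07 and 4.77e-08). At day 5 it was 1.64-fold higher in control cells (log2 0.71, SE 0.16, adjusted p = 0.000791), and the LysM-Cre difference of 0.34 was not called (adjusted p = 0.0791). The difference of the RANKL response between days was 2.13 (SE 0.23, adjusted p = 8.11e-07) in control and 1.88 (SE 0.22, adjusted p = 4.57e-06) in LysM-Cre cells. The 10 proliferation markers moved with it: all 10 were called lower with RANKL at day 3 and higher at day 5 in both genotypes. Their summed level in control cells was 1608 to 2170.3 CPM without and 635 to 1019 CPM with RANKL at day 3, and 294 to 349 CPM without and 1613 to 1871 CPM with it at day 5. The part of proliferating cells in the Lbr values was not tested.

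Dhcr7 (ENSMUSG00000058454, chr7:143823145-143848410), which makes cholesterol from 7-dehydrocholesterol, was at 36.4, 69.9 and 64.5 CPM in control cells at day 3 without RANKL and at 25.3, 28.5 and 19.8 CPM with it. The day 5 values were 36.2, 47.6 and 48.1 CPM against 25.2, 24.9 and 22.3 CPM. In LysM-Cre cells they were 75.4, 35.3 and 79.6 CPM against 20.3, 25.0 and 26.3 CPM, and 43.2, 33.7 and 45.3 CPM against 25.0, 21.5 and 27.1 CPM. The groups did not overlap. Dhcr7 was 2.32-fold and 1.82-fold lower in control cells (log2 −1.21 and −0.87, SE 0.25 each, adjusted p = 0.000355 and 0.00748), and 2.66-fold and 1.66-fold lower in LysM-Cre cells (adjusted p = 7.49e-05 and 0.0200). The last of these calls was lost without LysM-Cre M-CSF library 1 or 3 or RANKL library 2, with an adjusted p of 0.0549 to 0.0729. Sc5d, the desaturase before Dhcr7, fell from 51.4 ± 16.0 to 23.0 ± 3.42 CPM at day 3 (log2 −1.16, SE 0.26, adjusted p = 0.000595) and from 39.2 ± 3.05 to 22.3 ± 2.19 CPM at day 5 (adjusted p = 0.0119) in control cells. In LysM-Cre cells it was called at both days, but the day 5 call (log2 −0.62, adjusted p = 0.0471) was lost in 7 of 12 alternatives, among them leaving out M-CSF library 3 (−0.39, adjusted p = 0.246), M-CSF library 1 (0.0834) or RANKL library 1 or 2 (0.133 and 0.117).

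Of the other enzymes of this stretch, Ebp, the isomerase, fell from 54.5 ± 2.74 to 40.8 ± 0.474 CPM at day 3 in control cells (log2 −0.42, SE 0.10, adjusted p = 0.00142) and was at 49.0 ± 6.76 and 42.5 ± 3.49 CPM at day 5 (adjusted p = 0.105). Msmo1, Hsd17b7 and Nsdhl, which work together after Cyp51 to remove the remaining pair of methyl groups, were called in no RANKL comparison. Msmo1, the methyl oxidase, was at 115 ± 51.7 and 66.4 ± 14.3 CPM at day 3 in control cells (log2 −0.79, SE 0.34, adjusted p = 0.0542). Hsd17b7, the ketone reductase, was at 21.1 ± 15.4 and 11.1 ± 2.89 CPM (log2 −0.94, SE 0.52, adjusted p = 0.127) and at day 5 at 32.2 ± 3.12 and 19.4 ± 0.806 CPM, where the groups did not overlap (log2 −0.73, SE 0.51, adjusted p = 0.248). Nsdhl, the dehydrogenase, was at 37.6 ± 11.5 and 30.3 ± 1.48 CPM (log2 −0.31, SE 0.20, adjusted p = 0.192).

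**Figure D2:**
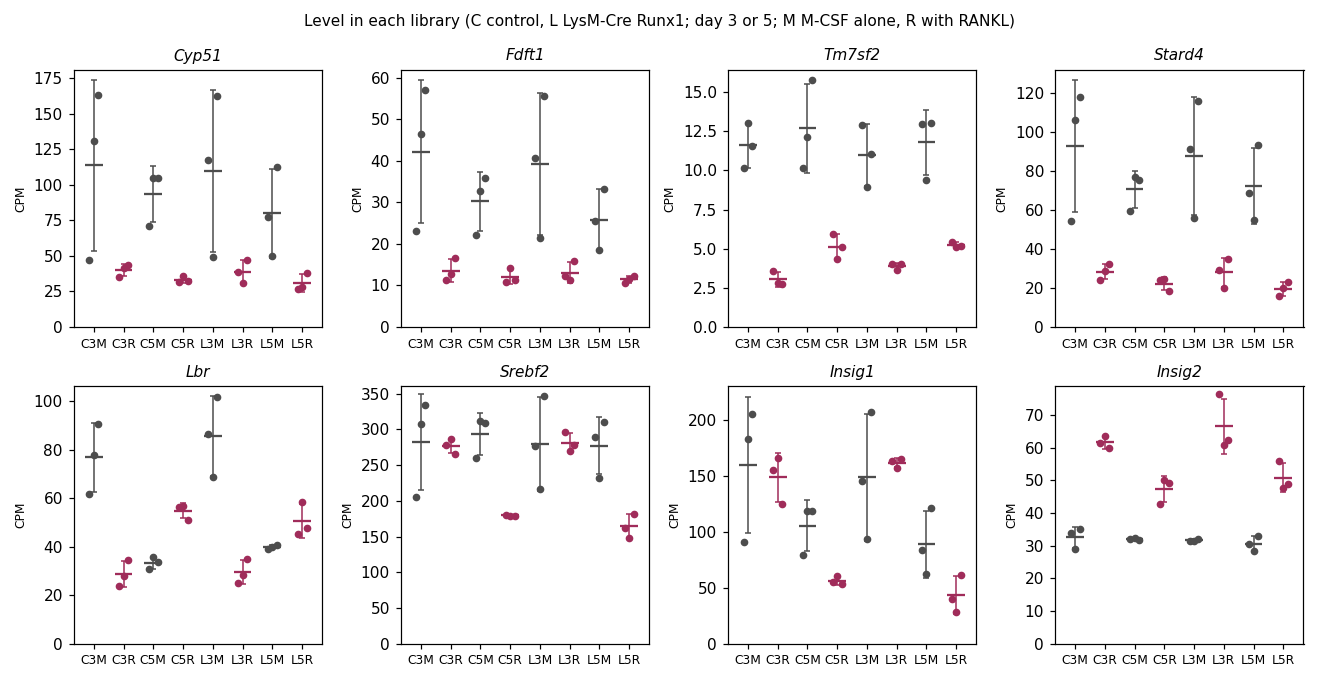
CPM (vertical axes, from 0) of 8 of the genes in each library, by group on the horizontal axes (C control, L LysM-Cre; 3 and 5 the day; M M-CSF alone, R with RANKL), with bars for the mean and 1 SD of 3 libraries. Cyp51, Fdft1, Tm7sf2 and Stard4 are lower with RANKL at both days, Lbr is lower at day 3 and higher at day 5, Srebf2 and Insig1 differ at day 5, and Insig2 is higher at both days.

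Of the 6 genes of SREBP2 control, 3 were called higher and 1 lower with RANKL at day 3 in each genotype. At day 5, 3 were higher and 2 lower in control cells and 2 higher and 2 lower in LysM-Cre cells. Over all genes tested, 59.1% were called at day 3 and 49.4% at day 5 in control cells, and 59.2% and 52.4% in LysM-Cre cells. Srebf2 (ENSMUSG00000022463, chr15:82147181-82205379), which encodes SREBP2, was at 206, 307 and 334 CPM at day 3 in control cells without RANKL and at 278, 286 and 266 CPM with RANKL. At day 5 it was at 259.9, 312 and 308 CPM without and 181, 179 and 179 CPM with RANKL. LysM-Cre cells had 276, 216 and 346 CPM against 296, 269.7 and 278 CPM at day 3, and 289, 232 and 309.8 CPM against 162, 148 and 182 CPM at day 5. At day 3 the RANKL libraries lay inside the range of the others, and at day 5 all of them lay below. The log2 difference was −0.03 (interval −0.36 to 0.30) at day 3 and −0.71 (SE 0.16, adjusted p = 0.000818) at day 5 in control cells, and 0.01 (−0.32 to 0.34) and −0.76 (SE 0.16, adjusted p = 0.000435) in LysM-Cre cells. The day 5 fall was thus 1.64-fold and 1.69-fold. The difference between days was −0.68 (SE 0.22, adjusted p = 0.0461) in control and −0.77 (SE 0.22, adjusted p = 0.0232) in LysM-Cre cells. These 2 calls sat near the threshold: leaving out 1 library lost the first in 10 of 12 cases (adjusted p from 0.0516 to 0.102) and the second in 5 of 12 (0.0519 to 0.0690).

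Insig1 (ENSMUSG00000045294, chr5:28071363-28078662), a retention protein that is itself a known target of SREBP2, was like Srebf2 called lower with RANKL at day 5 only. It was at 90.6, 183 and 205 CPM without and 156, 166 and 125 CPM with RANKL at day 3 in control cells, and at 79.4, 119 and 119 CPM against 55.0, 60.7 and 53.5 CPM at day 5. In LysM-Cre cells the values were 146, 94.1 and 207 CPM against 164, 157 and 166 CPM, and 83.5, 62.5 and 121 CPM against 39.9, 28.2 and 61.9 CPM. The groups overlapped at day 3, and at day 5 every RANKL library was below every other. The log2 difference was −0.10 (interval −0.75 to 0.54) at day 3 and −0.91 (SE 0.31, adjusted p = 0.0214) at day 5 in control cells, and 0.12 (−0.52 to 0.77) and −1.03 (SE 0.32, adjusted p = 0.00938) in LysM-Cre cells. The difference between days was not called (−0.81, adjusted p = 0.257, and −1.16, adjusted p = 0.0851). The day 5 call in control cells was lost without M-CSF library 2 or 3 or RANKL library 1 or 3 (adjusted p from 0.0509 to 0.0594), and that in LysM-Cre cells without M-CSF library 3 or RANKL library 2 (0.0669 and 0.0558).

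Insig2 (ENSMUSG00000003721, chr1:121304353-121332589), the other retention protein, went up with RANKL. It was at 33.8, 28.99 and 35.0 CPM at day 3 in control cells without RANKL and at 61.4, 63.5 and 59.8 CPM with RANKL, and at day 5 at 32.1, 32.4 and 31.6 CPM against 42.8, 50.2 and 49.3 CPM. LysM-Cre cells had 31.3, 31.5 and 32.1 CPM against 76.3, 60.9 and 62.4 CPM at day 3, and 30.5, 28.3 and 32.9 CPM against 56.0, 47.7 and 48.9 CPM at day 5. The groups stood apart in each comparison, and the libraries without RANKL differed little from each other. The rises were 1.89-fold and 1.48-fold in control cells (log2 0.92 and 0.56, SE 0.10 each, adjusted p = 6.49e-08 and 5.69e-05) and 2.10-fold and 1.66-fold in LysM-Cre cells (log2 1.07 and 0.73, adjusted p = 6.21e-09 and 2.08e-06). The rise at day 3 was larger than at day 5 by 0.35 and 0.34 on the log2 scale, and these differences were not called (adjusted p = 0.0986 and 0.106).

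Mbtps1 (ENSMUSG00000031835, chr8:119508156-119558735), the first protease that cuts SREBP2, was at 111, 100.2 and 95.9 CPM in control cells at day 3 without RANKL and at 143, 143 and 133 CPM with it, and at day 5 at 97.7, 96.6 and 91.4 CPM against 122, 123 and 117 CPM. In LysM-Cre cells it was at 106, 110.2 and 104 CPM against 149, 136 and 142 CPM, and at 93.5, 93.6 and 92.6 CPM against 117, 121 and 120.2 CPM. The RANKL libraries were the higher ones throughout. The rise was 1.36-fold and 1.27-fold in control cells (log2 0.45 and 0.34, SE 0.07 each, adjusted p = 5.02e-06 and 0.000154) and 1.33-fold and 1.28-fold in LysM-Cre cells (adjusted p = 1.25e-05 and 0.000102). Mbtps2, the second protease, rose from 50.2 ± 4.27 to 63.3 ± 2.30 CPM at day 3 (log2 0.33, SE 0.07, adjusted p = 0.000275) and from 54.0 ± 0.918 to 63.3 ± 2.54 CPM at day 5 (log2 0.23, adjusted p = 0.00794) in control cells. In LysM-Cre cells it rose at day 3 (0.33, adjusted p = 0.000305), and at day 5 the difference was 0.12 (adjusted p = 0.154). The day 5 call in control cells was lost without M-CSF library 2 or 3 (adjusted p = 0.0565 and 0.0646), and Mbtps2 shares 28.9% of its runs of 50 bases with other genes. Scap, the escort of SREBP2, fell from 47.2 ± 2.04 to 37.6 ± 3.00 CPM at day 3 (log2 −0.33, SE 0.08, adjusted p = 0.00213) in control cells and from 45.5 ± 2.86 to 37.7 ± 2.38 CPM (−0.27, adjusted p = 0.00856) in LysM-Cre cells, and was not called at day 5 (−0.11 in both). The LysM-Cre call was lost without RANKL library 1 (adjusted p = 0.0686).

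Stard4 (ENSMUSG00000024378, chr18:33199355-33213862), a soluble carrier that moves sterol between membranes and a known SREBP2 target, was at 54.5, 106 and 118 CPM in control cells at day 3 without RANKL and at 24.3, 28.8 and 32.4 CPM with it. The day 5 values were 59.6, 76.9 and 75.6 CPM against 24.1, 24.7 and 18.3 CPM. LysM-Cre cells had 91.4, 56.0 and 116 CPM against 29.3, 20.1 and 34.7 CPM at day 3, and 68.7, 55.2 and 93.6 CPM against 15.7, 19.8 and 23.1 CPM at day 5. No groups overlapped. The falls were 3.26-fold and 3.16-fold in control cells (log2 −1.71 and −1.66, SE 0.29 each, adjusted p = 3.51e-05 and 6.90e-05) and 3.13-fold and 3.70-fold in LysM-Cre cells (adjusted p = 5.14e-05 and 1.62e-05). Of the enzymes that supply acetyl-CoA, Acss2, which makes it from acetate, was at 23.4, 21.5 and 14.0 CPM without and 9.87, 8.0001 and 6.42 CPM with RANKL at day 3 in control cells, a 2.42-fold fall (log2 −1.28, SE 0.24, adjusted p = 0.000116). LysM-Cre cells showed a 2.30-fold fall (adjusted p = 0.000200). At day 5 it was at 7.28 ± 2.33 and 5.98 ± 0.607 CPM and was not called (log2 −0.28, adjusted p = 0.370). Acly, which makes acetyl-CoA from citrate, was at 309 ± 59.7 and 353 ± 17.6 CPM at day 3 and was called in no RANKL comparison.

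Per kilobase of the deposited gene length, the 29 genes covered a wide range. Acly had the highest median level over the 24 libraries, 53.7 CPM per kilobase, followed by Insig1 at 38.5 and Srebf2 at 38.0 CPM per kilobase. Ebp, at 19.5, and Hmgcs1, at 16.6 CPM per kilobase, were the highest of the enzymes. At the low end were Tm7sf2 at 1.33, Acss2 at 0.826 and Fdps at 0.326 CPM per kilobase. The Fdps counts, and so its place, are uncertain because of shared sequence. Of the alternative reductases, Lbr was at 9.05 CPM per kilobase. Insig2 was at 11.2 CPM per kilobase.

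**Figure D3:**
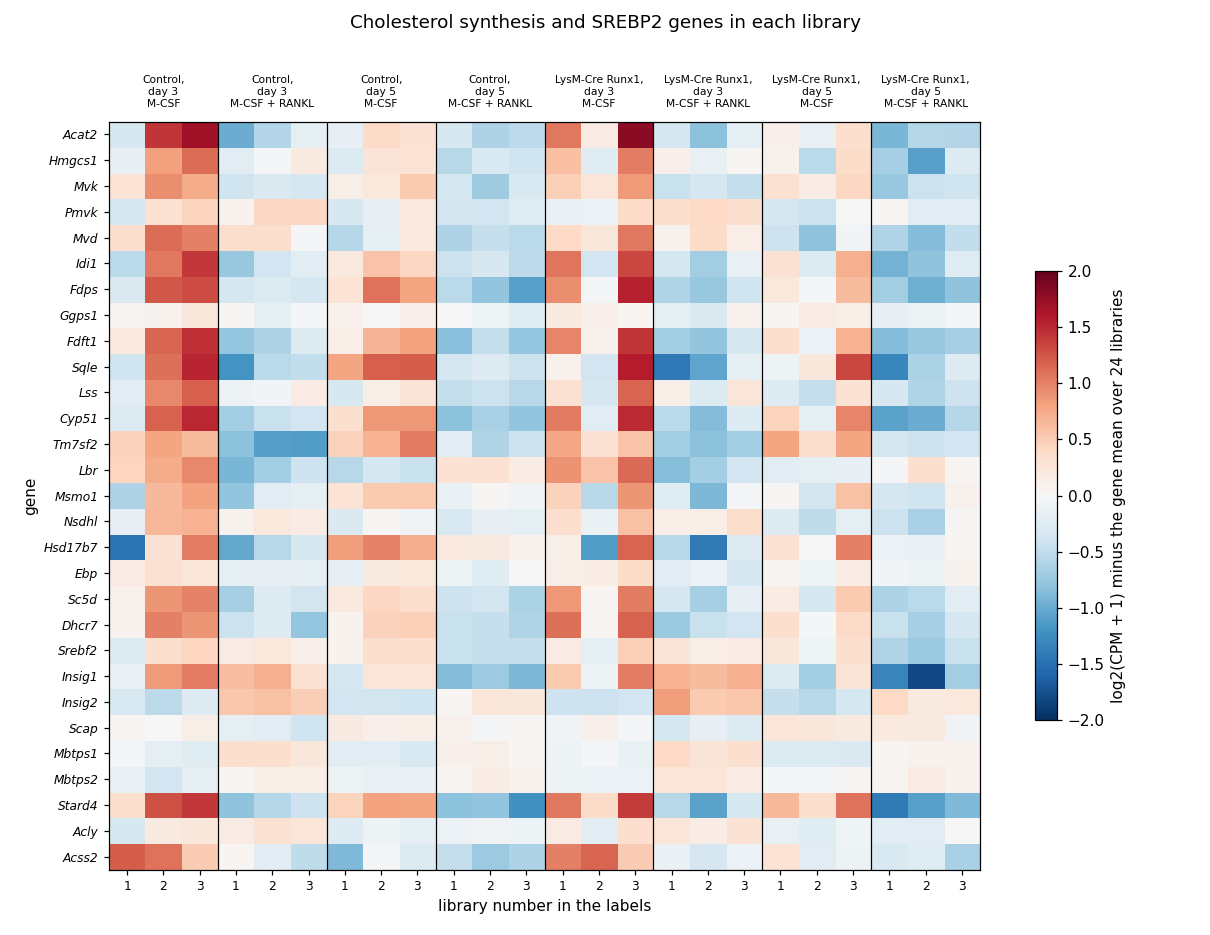
Level of each of the 29 genes (rows) in each of the 24 libraries (columns, by group and library number), as log2(CPM + 1) minus the gene's mean over all libraries, from blue (lower) to red (higher). In M-CSF alone most enzyme rows are lowest in control number 1 and LysM-Cre number 2, and most enzyme rows are bluer in the columns with RANKL, while Insig2, Mbtps1 and Mbtps2 are redder there and Acly, Pmvk, Insig1 and Srebf2 are not blue in the day 3 columns with RANKL.

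The enzymes also differed between libraries of the same group, and the spread was widest in M-CSF alone at day 3. Summed over the 20 enzymes, the control libraries at day 3 held 619, 1232 and 1420 CPM, and those with RANKL 486, 572 and 592 CPM. LysM-Cre libraries held 1032, 629 and 1456 CPM without and 539, 486 and 624 CPM with RANKL. At day 5 the sums were 719, 926 and 943 CPM against 538, 563 and 533 CPM in control cells, and 706, 578 and 979 CPM against 469, 471 and 584 CPM in LysM-Cre cells. Only in the day 5 LysM-Cre groups did the sums overlap, where number 2 without RANKL was below number 3 with it. Control number 1 at day 3 was the lowest of its 3 libraries for 20 of 20 enzymes, where it was lowest for 41.0% of all genes tested, and at day 5 for 18 of 20 (37.5%). LysM-Cre number 2 was lowest for 17 of 20 at both days (35.1% and 29.9% of all genes), and LysM-Cre number 3 highest for 18 and 19 of 20 (35.8% and 35.1%). With RANKL the same numbers stood lowest or highest for fewer enzymes: at day 3 control number 1 was lowest for 14 of 20 and LysM-Cre number 2 for 12, and LysM-Cre number 3 was highest for 15 at day 3 and 14 at day 5. At day 5 control number 1 was lowest for 6 and LysM-Cre number 2 for 10. The median SD of the enzymes on the log2 scale was 0.58 and 0.64 in the control and LysM-Cre groups without RANKL at day 3, against 0.18 and 0.20 for all genes, and 0.21 in each genotype with RANKL, against 0.15 and 0.16. The proliferation markers summed to 1608, 1927 and 2170.3 CPM in the 3 control libraries and 2459, 1515 and 2308 CPM in the 3 LysM-Cre libraries without RANKL at day 3, and their part in this spread was not tested. Without control number 1 in M-CSF alone, 24 of the 29 genes were called at day 3 in control cells in place of 20, and without LysM-Cre number 2, 22 in place of 19.

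**Figure D4:**
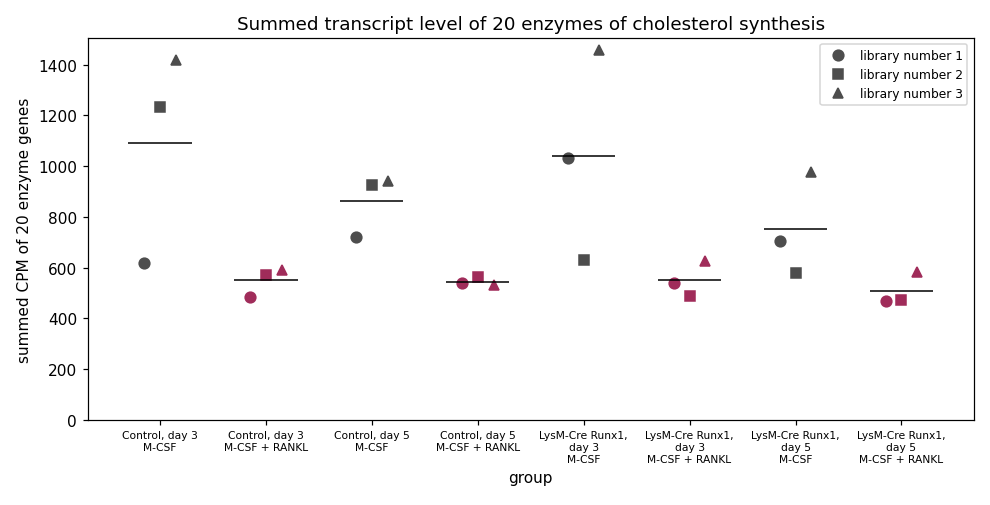
Summed CPM of the 20 enzymes (vertical axis, from 0) in each library, by group (horizontal axis), with a line at the mean of 3 libraries and a marker for the library number. Libraries without RANKL (grey) spread from 578 to 1456 CPM, and those with RANKL (red) from 469 to 624 CPM.

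Between day 3 and day 5 in M-CSF alone, the genes called were all lower at day 5. In control cells 4 were called lower and 0 higher, against 23.7% of all genes tested (12.2% higher and 11.5% lower), and in LysM-Cre cells 5 were lower and 0 higher, against 14.3% (7.17% and 7.08%). Mvd, Lbr, Nsdhl and Acss2 were lower in both genotypes. Mvd fell from 54.7 ± 14.9 to 26.7 ± 7.31 CPM in control cells (log2 −1.04, SE 0.24, adjusted p = 0.00473), Lbr by 1.20 on the log2 scale (adjusted p = 2.03e-05) and Acss2 by 1.43 (adjusted p = 0.000325). The Acss2 call in LysM-Cre cells was lost without number 2 at day 5 (adjusted p = 0.0518). Nsdhl fell by 0.57 in control and 0.62 in LysM-Cre cells (adjusted p = 0.0465 and 0.0468), and leaving out 1 library lost these calls in 5 of 6 cases in each genotype (adjusted p from 0.0595 to 0.177). Mbtps1 was the fifth in LysM-Cre cells (−0.20, adjusted p = 0.0495), a call lost without any of 5 single libraries (0.0982 to 0.152). Without control number 1 at day 3 the control count was 8 in place of 4, and without LysM-Cre number 2 at day 3 or day 5 the LysM-Cre count was 8 or 2 in place of 5, and 3 without number 1 at either day or number 3 at day 5.

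With RANKL, 9 genes changed between the days in control cells, 3 higher and 6 lower, against 26.8% of all genes (14.1% and 12.7%), and 10 in LysM-Cre cells, 2 higher and 8 lower, against 33.2% (17.6% and 15.6%). Pmvk, Mvd, Srebf2, Insig1, Insig2 and Mbtps1 were lower and Lbr and Scap higher at day 5 in both genotypes. Insig1 fell the most, from 149 ± 21.6 to 56.4 ± 3.80 CPM in control cells (2.64-fold, log2 −1.40, SE 0.32, adjusted p = 0.00304) and from 162 ± 4.33 to 43.3 ± 17.1 CPM in LysM-Cre cells (3.73-fold, log2 −1.90, SE 0.32, adjusted p = 0.000198). Srebf2 fell by 0.62 and 0.78 (adjusted p = 0.00653 and 0.000951), and Insig2 by 0.38 and 0.39 (adjusted p = 0.00695 and 0.00424). Lbr rose by 0.93 and 0.78 on the log2 scale (adjusted p = 0.000307 and 0.000984) and Scap by 0.30 and 0.38 (adjusted p = 0.0128 and 0.00201). Tm7sf2 rose in control cells (log2 0.75, SE 0.19, adjusted p = 0.00752) and was not called in LysM-Cre cells (0.43, adjusted p = 0.0872). Nsdhl (−0.54, adjusted p = 0.0460) and Acly (−0.38, adjusted p = 0.0238) were called lower in LysM-Cre and not in control cells, and the change over days was not tested between genotypes. Leaving out 1 library lost several of these calls: in LysM-Cre cells Nsdhl and Pmvk for 5 of 6 libraries each, Acly for 4 and Mvd for 1, and in control cells Mvd and Mbtps1 for 4 each, Pmvk for 3 and Scap for 2. Their adjusted p then ran from 0.05002 to 0.198. Without control number 1 with RANKL at day 5 the control count was 5 in place of 9, and without LysM-Cre number 2 with RANKL at day 5 the LysM-Cre count was 6 in place of 10.

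The test of whether the RANKL response itself differed between days called 2 of the 29 genes in each genotype, Lbr and Srebf2, against 14.0% of all genes in control cells (7.26% higher and 6.73% lower) and 15.2% in LysM-Cre cells (8.09% and 7.13%). Their values are those given above. The median RANKL response of the 20 enzymes was −1.12 at day 3 and −0.72 at day 5 in control cells and −1.09 and −0.63 in LysM-Cre cells, and Lbr was the only enzyme whose difference between days was called. The M-CSF groups of each day are part of both the RANKL and the day comparisons.

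No genotype difference was called. LysM-Cre against control cells called 0 of the 29 genes at both days and in both media, against 0% of all genes tested in either direction, and 0 of the 29 had an unadjusted p under 0.05. Over all genes an unadjusted p under 0.05 was reached by 530 and 948 genes in M-CSF alone at days 3 and 5 and by 258 and 457 genes with RANKL, and DESeq2 called 3, 18, 1 and 5 genes, none of them among the 29. The genotype differences ran from −0.27 (Sqle) to 0.16 (Lbr) on the log2 scale at day 3 without RANKL and from −0.61 (Fdps) to 0.40 (Acss2) at day 5, and from −0.47 (Fdps) to 0.35 (Tm7sf2) at day 3 and −0.37 (Insig1) to 0.23 (Acss2) at day 5 with RANKL. The 95% intervals lay within 1 log2 unit of 0 for 26, 24, 25 and 23 of the 29 genes in that order. For Fdps at day 5 in M-CSF alone the interval ran from −1.61 to 0.39. The RANKL response differed between genotypes for 0 of 29 genes at either day by edgeR and 0 by DESeq2, with an unadjusted p under 0.05 for 0 of 29 genes at both days and for 242 and 481 of all genes. For Srebf2 the difference of responses was 0.04 (interval −0.42 to 0.50) at day 3 and −0.05 (−0.51 to 0.42) at day 5. A p that misses the threshold does not show that the genotypes act alike. The Runx1 transcript itself was not called between the labels either. Its log2 difference ran from 0.004 (day 5, M-CSF alone) to 0.23 (day 5 with RANKL, interval −0.05 to 0.51).

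Genes that work beside these 29 were counted from lists by function. Of all genes tested, 59.1% were called with RANKL at day 3 in control cells (29.5% higher and 29.7% lower). At day 5 the share was 49.4% (26.4% and 23.1%), and in LysM-Cre cells 59.2% and 52.4% at the 2 days. The list counts were not tested against these shares. Of 13 genes that use isoprenoid units, 5 were higher and 5 lower with RANKL at day 3 in control cells, and 4 and 3 at day 5. Nus1, a subunit of the enzyme that makes dolichol, rose from 125 to 271 CPM at day 3 (log2 1.12, SE 0.14, adjusted p = 1.08e-06), Pdss1, which makes the side chain of ubiquinone, from 4.54 to 16.7 CPM (1.87, SE 0.30, adjusted p = 1.85e-05) and Rabggtb, a subunit of the Rab prenyltransferase, from 28.6 to 54.2 CPM (0.92, SE 0.09, adjusted p = 2.91e-08). These 3 had the smallest p of the list, and all were called higher at day 5 and in LysM-Cre cells too. The 5 called lower at day 3 were Rce1 and Icmt, which process prenylated proteins, Fntb and Rabggta, subunits of prenyltransferases, and Dhdds, the partner of Nus1, with log2 differences from −0.56 (Rce1) to −0.23 (Dhdds), and they were named after their values were seen. Of 6 electron donors and cofactors of sterol enzymes, 2 were higher and 3 lower in every RANKL comparison: Cyb5a, cytochrome b5, fell from 157 to 72.1 CPM (log2 −1.12, adjusted p = 2.00e-09) and Erg28, a scaffold of the demethylating enzymes in yeast, from 30.1 to 13.6 CPM (−1.15, adjusted p = 2.16e-06), while Pgrmc1, a heme protein that binds cytochromes P450, rose from 53.4 to 146 CPM (1.45, adjusted p = 2.53e-09) at day 3 in control cells.

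Of 14 genes of cholesterol uptake, storage and transport, 5 were higher and 7 lower at day 3 in control cells, and 2 and 4 at day 5. For this list and those below, 59.1% of all genes tested were called at day 3 and 49.4% at day 5. Gramd1b, a sterol transporter between plasma membrane and endoplasmic reticulum, fell from 243 to 41.4 CPM (log2 −2.55, SE 0.13, adjusted p = 1.02e-12), Nceh1, a cholesteryl ester hydrolase, from 454 to 210.5 CPM (−1.11, adjusted p = 1.31e-09) and Soat1, which esterifies cholesterol, from 383 to 148 CPM (−1.37, adjusted p = 4.90e-08), and all 3 were called lower in every RANKL comparison. Of 11 genes of sterol-regulated protein degradation 5 were higher and 2 lower at day 3, and 2 and 3 at day 5. Among them Erlin2, part of a membrane complex that binds the ubiquitin ligase, rose from 87.2 to 138 CPM at day 3 (0.66, adjusted p = 2.02e-06) and was at 112 and 116 CPM at day 5 (adjusted p = 0.665). Of 9 genes of Scap transport to the Golgi (Paqr3 and genes of the COPII coat that carries Scap), 5 were higher and 1 lower at day 3. At day 5 the counts were 1 and 1. Sec24d, a cargo adaptor, rose from 86.0 to 165 CPM at day 3 (0.94, adjusted p = 0.000117) and was at 125 and 112 CPM at day 5 (adjusted p = 0.476). Of 4 further SREBP targets, 2 were lower at day 3 and 0 called at day 5. Rdh11, a retinal reductase, fell from 47.2 to 24.01 CPM at day 3 (−0.98, adjusted p = 5.63e-08), and Srebf1, which encodes the related factor SREBP1, was at 118 and 126 CPM (0.09, adjusted p = 0.604).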

How the data were processed

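RNA from 24 libraries was sequenced from a TruSeq RNA kit with 250 ng of total RNA each, per the labels' protocols. The authors deposited whole-number read counts per gene. STAR, DESeq2 and GRCm39 are listed, with no versions, in the submitters' processing notes, and the sources used here give neither counting tool nor strand setting. Positions are those of the deposited table. Of its identifiers, 54409 were found in GENCODE M21 of GRCm38, and 98.3% of these, with 28 of the 29 genes described (not Tm7sf2), had the same position, so they match GRCm38 rather than the build in the notes.

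Counts were fitted in edgeR 4.0.16 (R 4.3.3) with filterByExpr, TMM scaling and a robust quasi-likelihood model with a coefficient for each of 8 groups over all 24 libraries, and p-values were adjusted by Benjamini-Hochberg over 15035 genes. Intervals are at 95%. The script was tested on simulated data. CPM are the deposited counts per 1000000 after TMM scaling, and CPM per kilobase use the deposited gene length. Shared sequence was counted as exonic bases shared with other genes in GENCODE M21 and as runs of 50 bases in transcripts. Alternatives were DESeq2 1.42.0, its size factors within edgeR, no filter, fits on the compared groups alone, the label number as a replicate block, each library left out, and LysM-Cre number 3 left out.

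All 29 genes are named. Values in every library are given for Srebf2, Insig1, Insig2, Fdps and the 8 with the smallest p in both control RANKL comparisons, and, at day 3 in control cells only, for Acss2, which was chosen after its values were seen. The 8 genes were picked by p, so their lack of overlap between control groups is no separate support. The 29 genes and the other lists were chosen with earlier results of these data known. Deviations from the group mean were correlated between libraries over all genes tested. In every RANKL comparison each library correlated best with the library of the same number in the other medium. In control cells the same-number r was 0.32, 0.098 and 0.31 at day 3 and 0.042, 0.11 and 0.19 at day 5. In LysM-Cre cells it was 0.077, 0.28 and 0.31 at day 3 and 0.21, 0.17 and 0.37 at day 5. The main fit does not use this pairing, and the replicate block does. Counting error is the only error that depth shows, and the totals above set it.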

Additional observations from a re-analysis of the deposited data

Results flagged for a closer look

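In 2 genes the response to RANKL differed between day 3 and day 5, in both genotypes. For Lbr the day 5 response exceeded the day 3 response by 2.13 on the log2 scale in control cells (SE 0.23, adjusted p = 8.11e-07) and by 1.88 in LysM-Cre cells (SE 0.22, adjusted p = 4.57e-06), and both calls held under every alternative tried. For Srebf2 the difference was −0.68 in control cells (SE 0.22, adjusted p = 0.0461) and −0.77 in LysM-Cre cells (SE 0.22, adjusted p = 0.0232). These were lost in 11 of 17 and 6 of 18 alternatives. Groups of 3 libraries are too small for a search for outlying libraries.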

How the results depend on the processing

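No value of a member changed direction past the threshold under any alternative. Counts of genes called with RANKL stayed within 1.5 times of 20 and 15 in control and 19 and 13 in LysM-Cre cells, and ranged over 16 to 24, 13 to 16, 16 to 22 and 9 to 15 with 1 library left out. For day 5 against day 3 the ranges were 3 to 8 and 2 to 8 in M-CSF alone and 5 to 8 and 6 to 9 with RANKL, and for the difference of the RANKL response between days 1 to 3 in each genotype. Genotype counts stayed at 0. Fitting only the compared groups gave 14 in place of 9 for day 5 against day 3 with RANKL in control cells, and 2 in place of 5 in M-CSF alone in LysM-Cre cells. The latter count was 3 without the filter on low counts and 3 without LysM-Cre number 3. With DESeq2, 4 genes in place of 2 differed in their response between days in each genotype, and without the filter 1 did in LysM-Cre cells. The causes were not tested. The replicate block gave 8 in place of 5 for day 5 against day 3 in M-CSF alone in LysM-Cre cells, and moved no other count by over 1.5 times. For RANKL against M-CSF alone at day 5 in LysM-Cre cells it gave 16 in place of 13. DESeq2's size factors moved the share of higher calls among all genes from 52.5% to 42.9% for day 5 against day 3 with RANKL in control cells. Of 464 single values, 22 of 99 calls were lost without the filter, 11 in fits on the compared groups and 1 with the block, which added 18.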
